A study of Caenorhabditis elegans with 12 samples.

Results

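The col genes of Caenorhabditis elegans encode the main class of collagens from which the worm builds its outer skeleton, the cuticle. The members were taken by name: every row of the gene tables whose name is col followed by a hyphen and a number, which gave 121 of the 15365 genes listed. RNA had been sequenced in 12 libraries of whole wild-type N2 worms, 3 for each of 4 groups, and all values are FPKM, which scale the fragments of a gene by its length and by the size of the library. Control worms grew on standard medium without added glucose, and the other 3 groups were exposed from the L4 larval stage, at 20 °C on OP50 bacteria, to 2% glucose alone (Glu), to 2% glucose with dimethyl sulfoxide (DMSO+Glu), or to 2% glucose with 25 μM naringin, a flavonoid of citrus fruit (Nar+Glu). The study's methods state that naringin was dissolved in dimethyl sulfoxide, so that DMSO+Glu is its solvent control, and that offspring were removed by letting the adults sediment. By the same methods, L4 worms of all 4 groups were kept on their media for several days before RNA was extracted, so that adult worms were sampled. Each library was made from whole worms, and the labels do not say whether the 3 libraries of a group came from separate cultures. The p-values therefore measure only the spread between these libraries, which may be technical.

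The cuticle is secreted by the epidermis, once in the embryo and again before each moult, and the last one made is that of the adult. Collagen chains are hydroxylated, joined into trimers, trimmed by proteases and crosslinked into furrows, ridges (alae) and struts. Individual col genes are switched on in waves within a moult and at particular stages, and adults continue to express some of them. Loss of a single col gene often leaves no visible defect, whereas genes named for body shape (dpy, rol, sqt and bli) were found by the short, twisted or blistered worms that their mutants give.

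Of the 121 col genes, 109 averaged more than 1 FPKM across the 12 libraries and entered the test among all 12151 genes that did. The other 12 had means of 0.328 to 0.983 FPKM, and none of them exceeded 1.83 FPKM in any library. The annotation of the WBcel235 assembly names 156 such genes, and the 36 without a row here, among them col-2 and the dauer collagen col-40, were not analysed. One row, col-182, has no gene of that name in the annotation and is listed as a pseudogene in RefSeq. Another, col-99, encodes a transmembrane collagen and not a secreted cuticle collagen. Of the 120 annotated members, 34 lie on chromosome IV and 27 on chromosome V. They are compact genes, with a median transcript of 1017.5 bases, and 63 of them have 2 exons. Another annotated gene overlaps 50 of them. Reads of overlapping genes on opposite strands can be told apart only if the quantification used strand, which is not given in the sources used here, and the overlap is stated for each gene named.

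As a class the col genes were abundant and varied widely. The 109 tested members had a median level of 22 FPKM, against 11.1 FPKM for all tested genes, and 19 members were above 100 FPKM. The 8 most abundant members held 32.6% of the summed col signal. In descending order of mean they were col-119, col-122, col-124, col-181, col-140, col-106, col-178 and col-93. The most abundant, col-119 (WBGene00000693, chromosome IV, 8978926 to 8979795, overlapping pdzd-8), measured 409, 422 and 403 FPKM (Control), 401, 361 and 359 (Glu), 332, 362 and 380.4 (DMSO+Glu) and 277, 235.2 and 232 (Nar+Glu). Every Nar+Glu library was below every other library for this gene, while the Glu and DMSO+Glu libraries overlapped.

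Summed over the 121 members, the col signal was 5453, 5782 and 5116 FPKM in the 3 Control libraries, 6397, 5853 and 5980 FPKM for Glu, 5640, 5759 and 5462 FPKM for DMSO+Glu, and 4733, 3757 and 4006 FPKM for Nar+Glu. The 3 Glu libraries had the highest sums, and the 3 Nar+Glu libraries the lowest. Group means were 5450 ± 333, 6077 ± 285, 5620 ± 149 and 4165 ± 507 FPKM (SD, n = 3). The ratio of means was 1.11 for Glu to Control and 0.741 for Nar+Glu to DMSO+Glu. In both of these comparisons, and in the other 2, the two-sided exact permutation test gave p = 0.1, the smallest that 3 libraries against 3 allow, so that no difference in the sums can pass 0.05. As a share of all summed FPKM, the col genes took 1.58% (Control), 1.86% (Glu), 1.73% (DMSO+Glu) and 1.32% (Nar+Glu). In whole worms, these sums cannot tell a change in the share of epidermal RNA from a change in collagen RNA per epidermal cell.

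**Figure D1:**
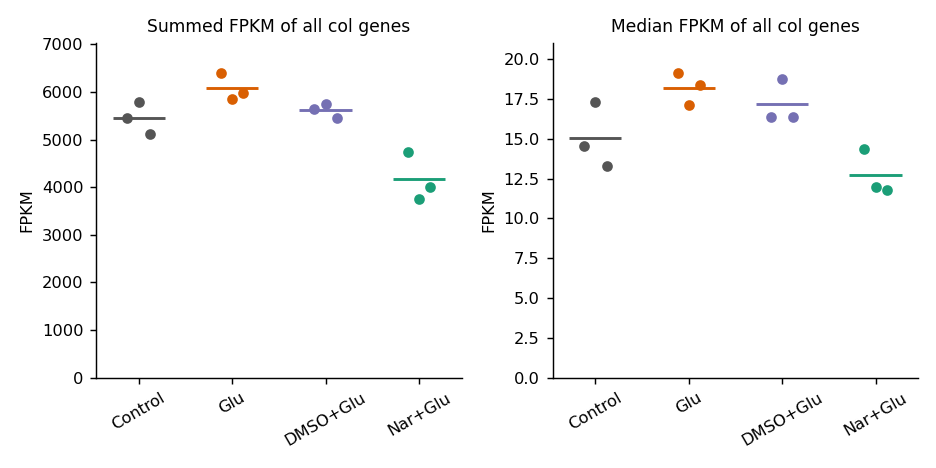
Summed FPKM of the 121 col genes (left) and their median FPKM (right) in each library. Points are libraries, 3 in each group, and lines are group means. The Nar+Glu sums, 3757 to 4733 FPKM, lie below the 5116 to 6397 FPKM of the 9 other libraries.

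Glu was the group with the highest mean for 48 of the 109 members (44.0%, against 14.3% of all tested genes), and Nar+Glu the group with the lowest mean for 62 (56.9%, against 38.2%). The highest group mean exceeded the lowest by a median of 1.68-fold over the members and 1.29-fold over all genes, and by more than 3-fold in 14 members (12.8%, against 3.53%). The members did not follow 1 course. In the plot of all tested members, a block with lower values in the Nar+Glu libraries, a block raised in every glucose group and a few genes raised further in Nar+Glu can be seen.

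**Figure D2:**
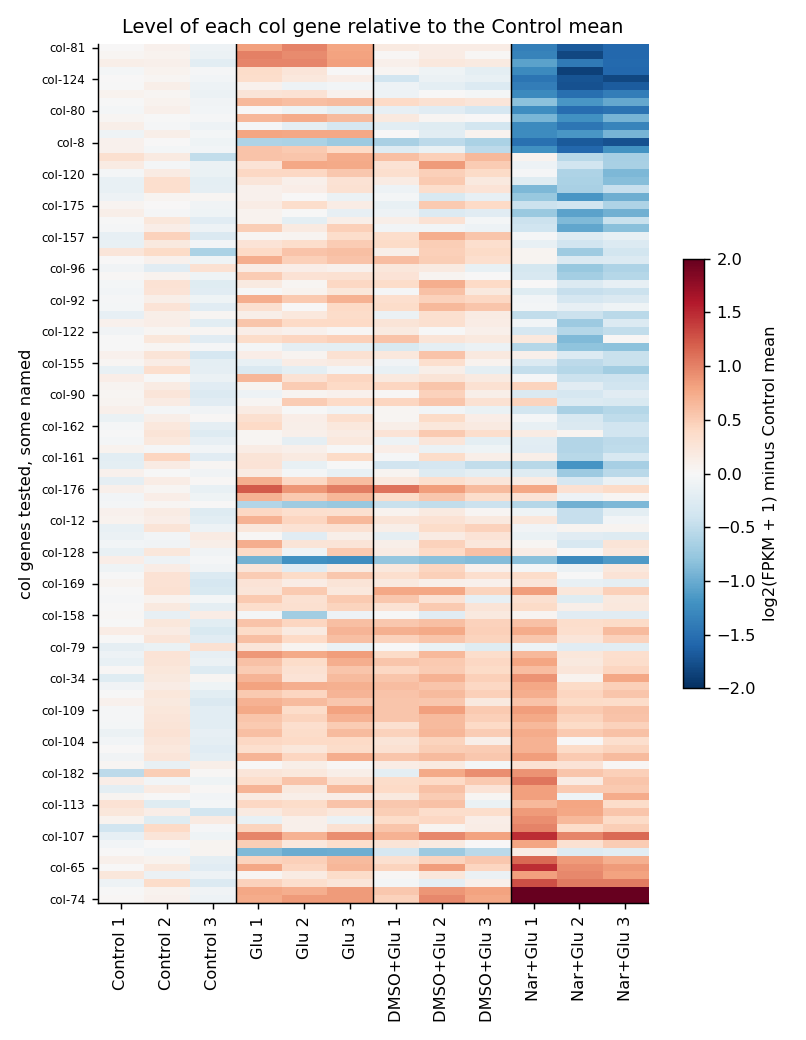
Level of each of the 109 tested col genes (rows, some of them named) in the 12 libraries (columns), as log2(FPKM + 1) minus the mean of the Control libraries, on a colour scale from -2 to 2. Rows are ordered by the Nar+Glu minus DMSO+Glu log2 change, from col-81 at the top to col-74 at the bottom, and values beyond the scale take its end colour.

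The comparison of Glu with Control asked what high glucose changed. Of the 109 col genes, 46 rose and 4 fell (limma, p-values adjusted by Benjamini-Hochberg across the 12151 genes tested, threshold 0.05), while 12.6% of all genes rose and 18.7% fell, 31.3% together. The median log2 change was 0.32 for the col genes and -0.06 for all genes, and 93 members had a positive change. The 3 Glu and the 3 Control libraries did not overlap for 64 members, or 58.7%, against 45.4% of all genes. Changes are differences of log2(FPKM + 1), which understate the change of genes of low level, and only 2 members passed 2-fold (1.83%, against 1.43% of all genes). Of the 53 members between 10 and 100 FPKM 33 rose, against 5 of 19 above 100 FPKM and 8 of 37 below 10 FPKM. The shares of all genes called at the same levels were not computed, so these counts cannot be called particular to the col genes. When only genes with a mean above 5 FPKM were fitted, 47 of the 86 members left rose and 4 fell, and 40.3% of all genes were called. When only the 6 libraries compared were fitted, without moderation and with a library covariate as Ballgown does, 3 residual degrees of freedom remained and 0 members were called, with 24 at an unadjusted p below 0.05 (22%, against 28.8% of all genes), and 2 of all genes were called.

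The largest rise was that of col-176 (WBGene00000749, chromosome X, 10077597 to 10078728), which measured 7.43, 7.02 and 6.08 FPKM (Control), 17.3, 13.4 and 14.9 (Glu), 15.6, 12.9 and 11.1 (DMSO+Glu) and 12.3, 8.67 and 9.22 (Nar+Glu). All Glu libraries were above all Control libraries, with a log2 difference of 1.04 (SE 0.14, adjusted p = 1.78e-04). Its DMSO+Glu libraries stayed above Control as well. The next 3 by size, col-129 (WBGene00000703, chromosome IV, 12108734 to 12110439), col-139 (WBGene00000712, chromosome V, 4652863 to 4653971) and col-81 (WBGene00000657, chromosome II, 11012397 to 11013767), rose by nearly as much. For col-139 the libraries read 53.1, 54.4 and 47.5 FPKM (Control), 104, 99.7 and 91.1 (Glu), 52.5, 57.2 and 52.2 (DMSO+Glu) and 19.7, 13.9 and 16.8 (Nar+Glu). Its Glu libraries stood alone at the top and its Nar+Glu libraries alone at the bottom, while Control and DMSO+Glu overlapped. The Glu minus Control log2 change was 0.92 ± 0.10 (SE, adjusted p = 3.08e-05) for col-139, 0.93 ± 0.11 for col-129 and 0.87 ± 0.09 for col-81. Glu was likewise highest and Nar+Glu lowest for col-62 (WBGene00000638, chromosome I, 7403291 to 7404374), which measured 6.46, 7.67 and 6.77 FPKM (Control), 12.7, 12.6 and 12.6 (Glu), 6.98, 5.88 and 7.33 (DMSO+Glu) and 2.31, 2.55 and 3.16 (Nar+Glu).

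Among the 10 largest rises were also genes whose mean in the other 2 glucose groups stayed above that of Control. For col-107 (WBGene00000681, chromosome IV, 1548721 to 1549714, overlapping C34H4.5), the libraries read 25.9, 34.5 and 27.4 FPKM (Control), 58.2, 47.9 and 56 (Glu), 47.8, 57.4 and 51.2 (DMSO+Glu) and 83, 58.3 and 65.2 (Nar+Glu). All 9 libraries of worms on glucose were above the 3 Control libraries, and the Glu minus Control change was 0.87 ± 0.13 (log2, SE, adjusted p = 3.74e-04). For col-39 (WBGene00000616, chromosome II, 10704916 to 10706019, overlapping dph-2), group means (± SD, n = 3) were 24.6 ± 4.35 FPKM for Control, 43.8 ± 1.74 for Glu, 34.1 ± 4.05 for DMSO+Glu and 32.9 ± 5.39 for Nar+Glu, with a Glu minus Control log2 difference of 0.82 (SE 0.12, adjusted p = 4.74e-04). For col-147 (WBGene00000720, chromosome V, 9632029 to 9633338, overlapping T06E4.5) they were 23.8 ± 2.37, 40.6 ± 1.58, 34.9 ± 2.58 and 35.3 ± 5.49 FPKM in the same order, with a Glu minus Control log2 difference of 0.75 (SE 0.10, adjusted p = 1.60e-04). The remaining 2 of the 10, col-74 and col-165, are described with naringin below.

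Only 4 col genes fell. The deepest fall, and the only one past 2-fold, was that of col-101 (WBGene00000675, chromosome IV, 325435 to 327020, overlapping drl-1), an abundant member. It measured 269, 229.9 and 241 FPKM (Control), 127, 105 and 103 (Glu), 143, 137 and 134 (DMSO+Glu) and 137, 101 and 112 (Nar+Glu). No glucose library reached the lowest Control library, and Glu minus Control was a log2 difference of -1.14 (SE 0.10, adjusted p = 4.95e-06). For col-95 (WBGene00000670, chromosome III, 11703994 to 11705091) the libraries read 83.3, 79.8 and 86.6 FPKM (Control), 44.8, 41.2 and 41.8 (Glu), 65.8, 49.7 and 57.2 (DMSO+Glu) and 91.9, 69.1 and 71.4 (Nar+Glu). Glu was the lowest group for this gene, with DMSO+Glu above it and Nar+Glu overlapping Control, and Glu minus Control was a log2 difference of -0.95 (SE 0.11, adjusted p = 3.63e-05). For col-143 (WBGene00000716, chromosome V, 6835635 to 6836704, overlapping T15B7.15) group means fell from 188 ± 4.86 FPKM in Control to 117 ± 7.67 in Glu (SD, n = 3), a log2 difference of -0.68 (SE 0.08, adjusted p = 8.51e-05). The fourth, col-8 (WBGene00000597, chromosome III, 7019583 to 7020600, overlapping lgc-38), measured 167, 159 and 148 FPKM (Control), 103, 101 and 95.5 (Glu), 100.0, 109 and 101 (DMSO+Glu) and 55.6, 48.6 and 46.3 (Nar+Glu). Its Glu libraries were below Control, a log2 difference of -0.66 (SE 0.07, adjusted p = 2.84e-05), and its Nar+Glu libraries were lower again.

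Collagens known by their stage or role moved in part. The adult collagen col-19 (WBGene00000608, chromosome X, 421707 to 422691, overlapping ZK1193.2), a marker of the adult epidermis, read 114, 111 and 100.3 FPKM (Control), 130.3, 133 and 115 (Glu), 101, 109 and 105 (DMSO+Glu) and 44.1, 37.5 and 40.8 (Nar+Glu). The Glu minus Control difference was small, a log2 difference of 0.21 (SE 0.07, adjusted p = 0.0418), and the call was lost without Control replicate 2, Control replicate 3, Glu replicate 1 or Glu replicate 2 (adjusted p = 0.0522 to 0.157) and in 3 other settings (0.05005 to 0.0786). The other adult collagen of the textbook set, col-7 (WBGene00000596, chromosome I, 7401132 to 7402761), was far less abundant at 8.17, 7.39 and 7.35 FPKM (Control), 11.8, 11.4 and 10.3 (Glu), 6.21, 6.86 and 5.00 (DMSO+Glu) and 2.71, 1.89 and 2.79 (Nar+Glu). Its Glu libraries were above all others and its Nar+Glu libraries below all others, with a Glu minus Control log2 difference of 0.50 (SE 0.13, adjusted p = 0.0114). For col-10 (WBGene00000599, chromosome V, 9164292 to 9165307), whose promoter is used to drive genes in the epidermis, the libraries read 89.5, 118 and 85.7 FPKM (Control), 148, 125 and 150.2 (Glu), 134, 155 and 137 (DMSO+Glu) and 162, 139 and 145 (Nar+Glu). All 9 glucose libraries were above the 3 Control libraries, and Glu minus Control was a log2 difference of 0.53 (SE 0.11, adjusted p = 0.00398). The neighbouring pair col-12 (WBGene00000601, chromosome V, 10423898 to 10425198) and col-13 (WBGene00000602, chromosome V, 10420788 to 10421902), closely similar genes between which reads can be misassigned, both rose, by 0.59 ± 0.14 and 0.45 ± 0.14 (log2, SE). The col-13 call was lost without Control replicate 3, Glu replicate 1 or Glu replicate 3 (adjusted p = 0.0538 to 0.0955).

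The Glu minus Control difference did not pass the test for col-17 (WBGene00000606, chromosome II, 4866436 to 4867576), a larval collagen, with 52.8 ± 10.2 FPKM in Control and 60.8 ± 8.10 in Glu (SD, n = 3, adjusted p = 0.236). It did not pass for col-120 (WBGene00000694, chromosome IV, 9260610 to 9261787), a collagen linked to long life in worms, with 4.97 ± 0.652 and 7.18 ± 0.441 FPKM (adjusted p = 0.054), though it passed in 5 alternative settings, among them without Control replicate 2 (0.0461). For the transmembrane col-99 (WBGene00000674, chromosome IV, 137974 to 147919, overlapping F29C4.10 and F29C4.11 and F29C4.12 and daf-1) the values were 3.19 ± 0.152 and 4.38 ± 0.519 FPKM (adjusted p = 0.052), with a pass in 5 alternative settings and with the sign turning to -0.43 when its transcript rows were summed. Of the 8 most abundant members, none rose or fell in this comparison. The nearest was col-124, with a log2 difference of 0.23 (SE 0.09, adjusted p = 0.0695), which passed under median-ratio scaling (0.0273) and in 3 other settings. For col-93, col-140, col-106 and col-178 the sign of the small log2 change turned under another scaling.

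The comparison of DMSO+Glu with Glu asked what the solvent changed. Of the 109 members, 7 were lower and 0 higher in DMSO+Glu, while 1.25% of all genes were called (limma, adjusted p below 0.05), 0.379% higher and 0.872% lower. At an unadjusted p below 0.05, 28 members differed (25.7%, against 9.36% of all genes). The groups did not overlap for 29 members (26.6%, against 15.2% of all genes). The unmoderated fit with a library covariate called 0 members, with 20 at an unadjusted p below 0.05 (18.3%, against 9.29% of all genes). The 6 with the largest fall among those named were col-139, col-62, col-7, col-129, col-81 and col-142. For col-139 the level went from 98.4 ± 6.70 FPKM in Glu to 54 ± 2.81 with the solvent (SD, n = 3), a log2 difference of -0.85 (SE 0.10, adjusted p = 0.00133). For col-62 it went from 12.6 ± 0.0621 to 6.73 ± 0.756 FPKM, a log2 difference of -0.82 (SE 0.11, adjusted p = 0.00198), and for col-7 from 11.2 ± 0.770 to 6.03 ± 0.944 FPKM, a log2 difference of -0.80 (SE 0.13, adjusted p = 0.0048). For col-129, col-81 and col-142 the log2 changes were -0.77, -0.71 and -0.60. The remaining gene was col-124, with a log2 difference of -0.45 (SE 0.09, adjusted p = 0.0281), a call lost without DMSO+Glu replicate 1, DMSO+Glu replicate 3, Glu replicate 1, Glu replicate 2 or Glu replicate 3 (adjusted p = 0.0508 to 0.1385) and in 1 other setting (0.084).

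**Figure D3:**
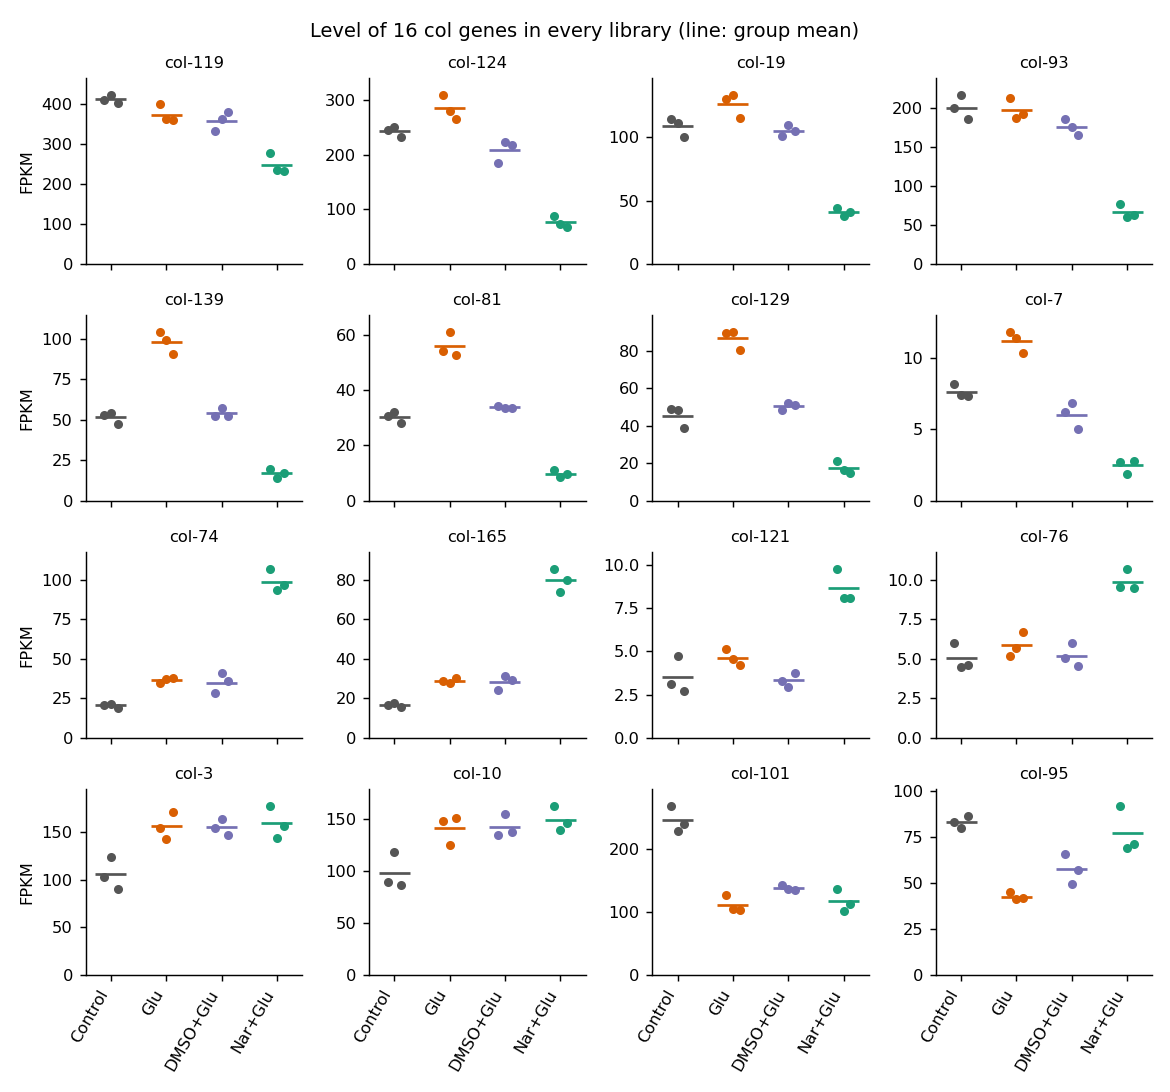
FPKM of 16 col genes in every library, each panel with its own axis from 0. Points are libraries, 3 in each group, and lines are group means. In the top 2 rows Nar+Glu is the lowest group, in the third row it is the highest, and in the bottom row col-3 and col-10 are raised in every glucose group while col-101 and col-95 are lowest in Glu.

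Nar+Glu set against its solvent control asked what naringin changed in worms on glucose. Of the 109 col genes, 48 fell and 6 rose (limma, adjusted p below 0.05), while 5% of all genes fell and 4.87% rose, 9.87% together. The median log2 change was -0.38 for the col genes and -0.01 for all genes, and 80 members had a negative change. A change of more than 2-fold was seen in 17 members (15.6%, against 0.634% of all genes), 14 of them lower and 3 higher. The 3 Nar+Glu and the 3 DMSO+Glu libraries did not overlap for 66 members, or 60.6%, against 34.6% of all genes. Of the 19 members above 100 FPKM 14 were lower and 0 higher. Of the 53 members between 10 and 100 FPKM 26 were lower and 3 higher, and of the 37 below 10 FPKM 8 were lower and 3 higher. Again the shares of all genes at the same levels were not computed. The unmoderated fit with a library covariate called 0 members and 0 of all genes here, with 41 members at an unadjusted p below 0.05 (37.6%, against 11.5% of all genes).

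Of the 8 most abundant members, col-124 (WBGene00000698, chromosome IV, 10216451 to 10217617, overlapping qns-1) fell furthest and measured 245, 249.9 and 233 FPKM (Control), 309, 280.3 and 265 (Glu), 185, 223 and 218 (DMSO+Glu) and 87.1, 72.9 and 68 (Nar+Glu). Its Nar+Glu libraries were below all others, and the difference from DMSO+Glu was a log2 difference of -1.45 (SE 0.09, adjusted p = 2.68e-07). The same held for col-93 (WBGene00000668, chromosome III, 10984552 to 10985609, overlapping dhc-4), at 199, 216 and 185 FPKM (Control), 212, 187 and 192 (Glu), 186, 175 and 166 (DMSO+Glu) and 76.1, 59.4 and 62.1 (Nar+Glu). Control, Glu and DMSO+Glu lay close together for this gene, and Nar+Glu minus DMSO+Glu was a log2 difference of -1.41 (SE 0.09, adjusted p = 2.68e-07). The fall of col-119 was smaller, a log2 difference of -0.53 (SE 0.07, adjusted p = 6.57e-04). For col-122 (WBGene00000696, chromosome IV, 9563379 to 9564441, overlapping lron-14) the means were 316 ± 21.1 FPKM in DMSO+Glu and 216 ± 18 in Nar+Glu, a log2 difference of -0.55 (SE 0.07, adjusted p = 2.30e-04). For col-181 (WBGene00000754, chromosome X, 12104930 to 12106102) they were 206 ± 20.4 and 154 ± 21.3 FPKM, a log2 difference of -0.42 (SE 0.09, adjusted p = 0.0111). For col-140 (WBGene00000713, chromosome V, 5835855 to 5836834) they were 206 ± 18.8 and 119 ± 16.9 FPKM, a log2 difference of -0.80 (SE 0.10, adjusted p = 1.77e-04). For col-178 (WBGene00000751, chromosome X, 11199455 to 11200467) they were 174 ± 10.8 and 105 ± 12.5 FPKM, a log2 difference of -0.73 (SE 0.09, adjusted p = 1.80e-04). The eighth, col-106 (WBGene00000680, chromosome IV, 1459896 to 1460786), went from 179 ± 21 to 137 ± 22.6 FPKM, a log2 difference of -0.38 (SE 0.11, adjusted p = 0.0467), a call lost without DMSO+Glu replicate 1, DMSO+Glu replicate 3, Nar+Glu replicate 2 or Nar+Glu replicate 3 (adjusted p = 0.082 to 0.181) and in 6 other settings (0.05007 to 0.107). The call of col-181 did not hold without DMSO+Glu replicate 1 (adjusted p = 0.0532).

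The adult marker col-19 fell to 40.8 FPKM in Nar+Glu from 105 in DMSO+Glu, a log2 difference of -1.35 (SE 0.07, adjusted p = 1.10e-07), and col-7 fell to 2.46 from 6.03 FPKM, a log2 difference of -1.02 (SE 0.13, adjusted p = 2.15e-04). Both groups of libraries were apart for both genes. The larval col-17 fell less, from 74.6 ± 10.7 to 47.4 ± 4.81 FPKM (SD, n = 3), a log2 difference of -0.64 (SE 0.13, adjusted p = 0.00959). Also called lower was col-120, with 6.87 ± 0.397 and 3.31 ± 1.39 FPKM and a log2 difference of -0.91 (SE 0.17, adjusted p = 0.00476). The level of col-10 in Nar+Glu, 149 ± 11.7 FPKM, did not differ from the 141.9 ± 11.1 of DMSO+Glu beyond the spread (adjusted p = 0.731). Of the similar pair, col-13 fell by 0.60 ± 0.14 on the log2 scale (SE, adjusted p = 0.015), a call lost without DMSO+Glu replicate 1 (adjusted p = 0.0514), and col-12 had a change of -0.35 ± 0.14 that did not pass (adjusted p = 0.131).

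The deepest falls by log2 change were those of col-81, col-139 and col-129, at -1.70 ± 0.09, -1.64 ± 0.10 and -1.50 ± 0.11 (SE). For col-81 the libraries read 30.4, 32.1 and 28 FPKM (Control), 54.2, 60.8 and 52.7 (Glu), 34.3, 33.5 and 33.5 (DMSO+Glu) and 11.1, 8.69 and 9.45 (Nar+Glu). Its DMSO+Glu libraries were above but near the Control libraries, and Nar+Glu was below every Control library. The fourth was col-20 (WBGene00000609, chromosome II, 4869670 to 4870791), which measured 115, 125 and 116 FPKM (Control), 153, 141 and 119.8 (Glu), 122, 112 and 104 (DMSO+Glu) and 48.7, 31.7 and 39.2 (Nar+Glu). Its Nar+Glu libraries were the lowest, a log2 difference of -1.49 (SE 0.12, adjusted p = 4.56e-06) against DMSO+Glu. After col-124, col-93 and col-19, the eighth was col-159 (WBGene00000732, chromosome V, 13198231 to 13202177, overlapping F57B1.10 and col-160), whose means were 46.1 ± 2.29 FPKM for Control, 71.6 ± 1.16 for Glu, 57.5 ± 3.22 for DMSO+Glu and 22.6 ± 2.77 for Nar+Glu, with Nar+Glu minus DMSO+Glu a log2 difference of -1.31 (SE 0.08, adjusted p = 1.91e-07). For col-80 (WBGene00000656, chromosome II, 10707201 to 10708287, overlapping dph-2) they were 198 ± 12.8, 186 ± 13.2, 167 ± 10.7 and 73.9 ± 8.20 FPKM in that order, a log2 difference of -1.17 (SE 0.08, adjusted p = 8.02e-07). For col-142 (WBGene00000715, chromosome V, 6831177 to 6832256, overlapping T15B7.14) they were 18 ± 0.486, 29.3 ± 1.08, 19.1 ± 1.40 and 8.36 ± 1.05 FPKM, a log2 difference of -1.11 (SE 0.09, adjusted p = 2.62e-06). In Nar+Glu, col-8 fell to 50.2 from 103 FPKM, a log2 difference of -1.03 (SE 0.07, adjusted p = 7.70e-07), and col-143 fell by a smaller step, -0.35 ± 0.08, a call lost without DMSO+Glu replicate 1, DMSO+Glu replicate 3, Nar+Glu replicate 2 or Nar+Glu replicate 3 (adjusted p = 0.0614 to 0.0764) and in 2 other settings (0.052 to 0.0756).

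The 6 members that rose under naringin were col-74, col-165, col-121, col-76, col-115 and col-95. For col-74 (WBGene00000650, chromosome II, 5830374 to 5832022, overlapping gtap-1) the libraries read 20.7, 21.6 and 18.9 FPKM (Control), 34.8, 37.3 and 37.5 (Glu), 28.3, 40.7 and 35.6 (DMSO+Glu) and 107, 93.2 and 96.4 (Nar+Glu). Glu and DMSO+Glu overlapped and were above Control, and Nar+Glu stood far above both, a log2 difference of 1.49 (SE 0.10, adjusted p = 8.02e-07). For col-165 (WBGene00000738, chromosome X, 4353618 to 4354852) the libraries read 16.3, 17.3 and 15.5 FPKM (Control), 28.8, 27.6 and 30.2 (Glu), 24.2, 31 and 29.2 (DMSO+Glu) and 85.3, 73.9 and 79.9 (Nar+Glu). The groups had the same order as for col-74, with a Nar+Glu minus DMSO+Glu log2 difference of 1.47 (SE 0.09, adjusted p = 1.91e-07). Next was col-121 (WBGene00000695, chromosome IV, 9394873 to 9396218, overlapping daf-15), at 3.12, 4.72 and 2.68 FPKM (Control), 5.12, 4.59 and 4.24 (Glu), 3.30, 2.91 and 3.76 (DMSO+Glu) and 9.77, 8.12 and 8.11 (Nar+Glu). Only the Nar+Glu libraries of this gene were apart from the rest, a log2 difference of 1.16 (SE 0.15, adjusted p = 3.48e-04). The same was true of col-76 (WBGene00000652, chromosome II, 8204339 to 8207495), which read 5.97, 4.49 and 4.59 FPKM (Control), 5.16, 5.67 and 6.71 (Glu), 5.05, 5.98 and 4.51 (DMSO+Glu) and 9.52, 10.7 and 9.44 (Nar+Glu), a log2 difference of 0.82 (SE 0.13, adjusted p = 0.00129). The rise of col-95, from 57.6 ± 8.05 to 77.4 ± 12.6 FPKM, was a log2 difference of 0.42 (SE 0.11, adjusted p = 0.0243), a call lost without DMSO+Glu replicate 2, DMSO+Glu replicate 3 or Nar+Glu replicate 1 (adjusted p = 0.0663 to 0.0906) and in 2 other settings (0.0521 to 0.0693). The sixth, col-115 (WBGene00000689, chromosome IV, 7988685 to 7991428, overlapping rig-4), had a mean below 5 FPKM and read 4.24, 4.69 and 5.07 FPKM in DMSO+Glu and 8.28, 6.58 and 5.85 in Nar+Glu, with a log2 difference of 0.47 (SE 0.13, adjusted p = 0.032).

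Glu against Control and Nar+Glu against DMSO+Glu share no library, so that the calls can be set side by side. Both use the same estimate of the spread of each gene, from all 12 libraries, so the calls are not independent. Higher with glucose and lower with naringin were 18 members (16.5%, against 1.02% of all genes), and by sign alone 66 members (60.6%, against 13.1%). Of the genes named, col-81, col-139, col-129, col-62, col-7, col-142, col-159, col-13, col-19, col-92, col-94, col-88 and col-160 were called in this class. A further 25 members (22.9%, against 9.25% of all genes) rose with glucose and were not called with naringin, among them col-176, col-107, col-39, col-147, col-10 and col-12. Another 28 (25.7%, against 2.41%) were lower with naringin and not called with glucose, among them the abundant col-119, col-122, col-124 and col-93. The 3 members that rose in both were col-74, col-165 and col-115 (2.75%, against 2.34% of all genes), and 2, col-8 and col-143, fell in both (1.83%, against 1.56%). The converse of the main class, lower with glucose and higher with naringin, held 1 member, col-95 (0.917%, against 0.0411%). Neither comparison called 29 members (26.6%, against 63.8% of all genes).

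**Figure D4:**
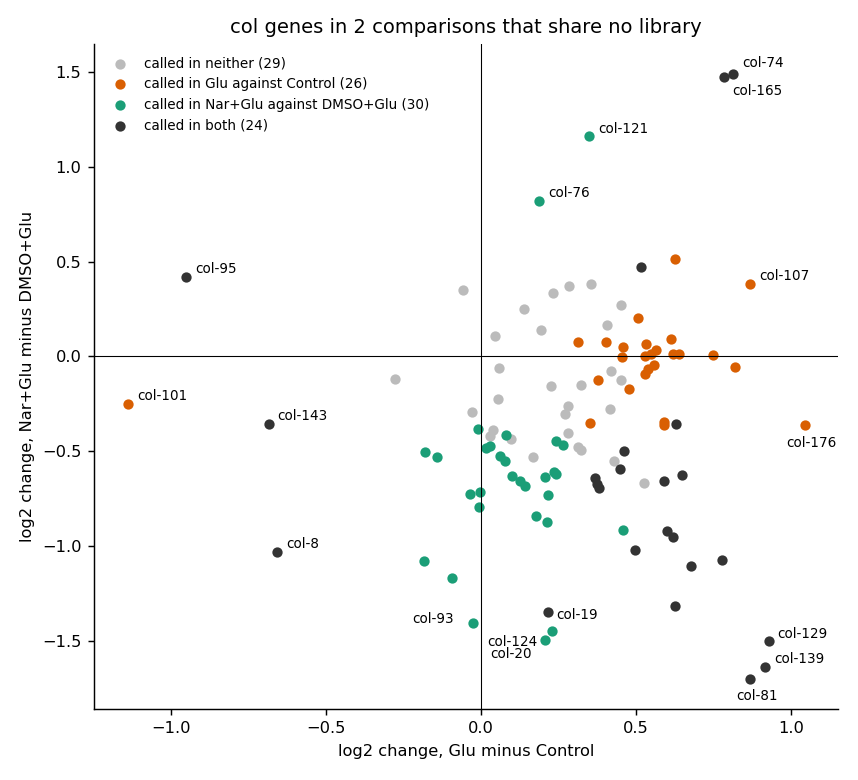
Log2 change of each of the 109 tested col genes in Glu minus Control (horizontal) and in Nar+Glu minus DMSO+Glu (vertical), which share no library. Each point is a gene, coloured by the comparisons in which it was called at an adjusted p below 0.05. The lower right part, positive on the first axis and negative on the second, holds 66 members, col-81, col-139 and col-129 at its far corner, while col-74 and col-165 lie alone at the upper right.

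Set against Control, Nar+Glu worms carried changes in both directions, with 32 members higher and 42 lower (limma, adjusted p below 0.05), when 21.6% of all genes were higher and 33.2% lower, 54.8% together. The share of members whose groups did not overlap, 59.6% (65 members), was near the 60.6% of all genes. Among the members called, 10 had Nar+Glu libraries that overlapped those of Control. More than 2-fold changes were found in 20 members (18.3%, against 2.80% of all genes), 15 of them lower. Above 100 FPKM, 15 of the 19 members were lower and 3 higher, with no share of all genes computed at that level. The unmoderated fit with a library covariate called 0 members, with 25 at an unadjusted p below 0.05 (22.9%, against 33.8% of all genes), and 11 of all genes. For col-124 the change was -1.67 ± 0.09 (log2, SE), from 242 FPKM in Control to 76 in Nar+Glu, and for col-8 it was -1.64 ± 0.07, from 158 to 50.2 FPKM. The largest rises were those of col-74 and col-165, at 2.22 ± 0.10 and 2.22 ± 0.09. A lower call was made for col-13, at -0.35 ± 0.14, and was lost without Control replicate 1, Control replicate 2, Nar+Glu replicate 2 or Nar+Glu replicate 3 (adjusted p = 0.0548 to 0.209) and in 4 other settings (0.0638 to 0.247). The rise of col-39, 0.41 ± 0.12, was lost without Control replicate 1, Control replicate 3 or Nar+Glu replicate 1 (adjusted p = 0.0558 to 0.0688), and that of col-176, 0.49 ± 0.14, without Nar+Glu replicate 1 (adjusted p = 0.0517). The fall of col-120, -0.51 ± 0.17, was lost without Control replicate 2, Nar+Glu replicate 2 or Nar+Glu replicate 3 (adjusted p = 0.0635 to 0.111). The rise of col-99, 0.54 ± 0.13, was lost under quantile scaling (adjusted p = 0.0804) and turned to -0.06 when its transcript rows were summed.

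Many col genes sit beside another, and 19 pairs of tested members are direct neighbours in the annotation. These pairs and the genes named in this paragraph for them were chosen after their values were seen. In Nar+Glu against DMSO+Glu, 16 of the 19 pairs (84.2%) had changes of the same sign, against 60.6% of all pairs of tested members, and the 2 members of a pair differed by a median of 0.35 in log2 change, against 0.51 over all 5886 pairs of tested members. In Glu against Control, 14 pairs (73.7%) had the same sign, against 74.7% of all pairs, and the median difference was 0.30 both for neighbours and for all pairs. Some pairs have a gene in common, so the pairs are not independent. Reads can be misassigned between neighbours of similar sequence, which was not tested, so like values may come from shared reads. The pair col-126 and col-127 had equal values in all 3 DMSO+Glu libraries, 2.02, 2.30 and 1.76 FPKM for both genes. An abundant pair with like values was col-117 (WBGene00000691, chromosome IV, 8822962 to 8824195) with col-3 (WBGene00000594, chromosome IV, 8824783 to 8826013), which lie 587 bases apart on opposite strands. For col-3 the libraries read 103, 124 and 90.3 FPKM (Control), 155, 143 and 171 (Glu), 154, 164 and 147 (DMSO+Glu) and 178, 144 and 157 (Nar+Glu). For col-117 they read 109, 129 and 94.3 FPKM (Control), 159, 149 and 177 (Glu), 163, 172 and 153 (DMSO+Glu) and 182, 149 and 162 (Nar+Glu). Both were above Control in all 9 glucose libraries, and Glu minus Control was 0.55 ± 0.10 for col-117 and 0.56 ± 0.11 for col-3 (log2, SE). The pair col-7 and col-62, 529 bases apart on opposite strands, was called in the same direction in every comparison made, higher in Glu than in Control and lower in the other 3.

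Other neighbours parted. Between col-39 and col-80, which lie 1181 bases apart on the same strand, Glu minus Control was 0.82 and -0.09, and Nar+Glu minus DMSO+Glu was -0.05 and -1.17, so that the first was called only with glucose and the second only with naringin. The difference between the genes was not tested. In the row col-92, col-93 and col-94, all overlapping dhc-4, the outer genes rose with glucose (0.65 and 0.63) while col-93 had a change of -0.02. All 3 fell with naringin, by 0.63, 1.41 and 0.36 on the log2 scale. The larval col-17 and the more abundant col-20, 2093 bases apart on the same strand, both fell with naringin, by 0.64 and 1.49.

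Transcript rows of a gene could exchange their values between libraries, as those of col-160 (overlapping col-159), col-167 and col-88 did, genes chosen after their values were seen. The 2 transcripts of col-129 exchanged their values from library to library, with M18.1a at 89.8, 12.2 and 11.5 FPKM in the Glu libraries and M18.1b.2 at 0, 80.9 and 71.8 FPKM in the same libraries, while the gene row read 89.6, 89.8 and 80.4. The gene rows were used throughout. For col-101 the 2 transcripts fell together, K02D7.3a from 95.1, 70.6 and 79.4 FPKM in Control to 38.5, 32.4 and 34.9 in Glu, and K02D7.3b from 187, 171 and 174 to 94.8, 78.4 and 73.4.

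Other genes of the cuticle gave a wider view. The counts for each list stand beside 12.6% of all genes higher and 18.7% lower with glucose, and 4.87% higher and 5% lower with naringin. Of 20 body-shape collagens tested, 4 rose and 0 fell in Glu against Control (median 0.22), among them dpy-14 (log2 change 0.49 ± 0.07, SE), dpy-17 (0.48 ± 0.06) and sqt-3 (0.46 ± 0.10). With naringin the same list split, with 4 higher and 9 lower and a median of -0.48. The risers included dpy-17, at 41.0 FPKM in DMSO+Glu and 93.1 in Nar+Glu (1.16 ± 0.06), and dpy-14, at 48.0 and 105 FPKM (1.12 ± 0.07), while the blister gene bli-6 fell from 21.1 to 10.8 FPKM (-0.91 ± 0.11). Of 15 genes listed for collagen synthesis and processing and tested, not all of them enzymes, 1 rose and 2 fell with glucose (median -0.06). The riser was dpy-31 (0.39 ± 0.10), the protease that trims the SQT-3 collagen, and the fallers were cyn-9, a cyclophilin (-0.24 ± 0.07), and tsp-12, a tetraspanin (-0.28 ± 0.08). With naringin 0 rose and 1 fell (median -0.03), namely pdi-2, the protein disulfide isomerase that also serves prolyl hydroxylase (-0.24 ± 0.05).

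Of 22 regulators of the epidermis, 6 rose and 1 fell with glucose (median 0.14), and 2 rose and 0 fell with naringin (median 0.14). Both directions together, the shares called were near those of all genes, 31.3% with glucose and 9.87% with naringin. The largest changes with glucose were the rises of grh-1 (log2 change 0.48 ± 0.14, SE), peb-1 (0.41 ± 0.15) and lin-14 (0.41 ± 0.10). The 2 that rose with naringin were lin-14, a timing factor of early larval life, from 14.2 to 22.2 FPKM (log2 change 0.61 ± 0.10, SE), and grh-1, the Grainyhead factor, from 7.37 to 11.8 FPKM (0.58 ± 0.14). Of 14 moulting genes, 5 rose and 0 fell with glucose (median 0.21), led by dsl-3, lrp-1 and nas-37 at log2 changes of 0.44 ± 0.12, 0.42 ± 0.08 and 0.40 ± 0.12 (SE). With naringin 0 rose and 0 fell (limma, median 0.17), and 11 were higher in Nar+Glu than in Control, as were 21.6% of all genes. Of 17 genes of the epidermis, 2 of which are also in the list of body-shape collagens, 6 rose and 3 fell with glucose (median 0.12), and 5 rose and 2 fell with naringin (median 0.17). The antimicrobial peptide gene nlp-29 rose with glucose by 1.07 ± 0.11 (log2, SE). The mean of ptr-2 went the other way, from 92.6 FPKM in Control to 69.7 in Glu. The summed level of the 17 genes was 339 to 375 FPKM for Control, 363 to 396 for Glu, 384 to 413 for DMSO+Glu and 442 to 457 for Nar+Glu. The epidermal list had its highest sums in Nar+Glu, where the col genes had their lowest, but its members did not move together. From DMSO+Glu to Nar+Glu the mean of ptr-2 went from 74.7 to 67.3 FPKM and that of rol-6 from 16.8 to 10.9. That of wrt-2 went from 6.83 to 11.2 FPKM. The difference in the sums was not tested.

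Markers of other tissues moved as well. Beside their counts, 12.6% of all genes were higher and 18.7% lower with glucose, and 4.87% higher and 5% lower with naringin. In DMSO+Glu against Glu, 0.872% of all genes were lower. The summed level of 27 major sperm protein genes was 143 to 174 FPKM for Control, 295 to 307 for Glu, 149.5 to 183 for DMSO+Glu and 53.3 to 74.8 for Nar+Glu. Of these genes, 23 were higher in Glu than in Control, 10 lower in DMSO+Glu than in Glu and 24 lower in Nar+Glu than in DMSO+Glu. As in col-139, col-81, col-62 and col-7, Glu was the highest group and Nar+Glu the lowest, with Control and DMSO+Glu between them. None of the lists was at 0. Of 16 oocyte and early embryo genes, 12 were lower in Glu than in Control and 3 lower in Nar+Glu than in DMSO+Glu, with sums of 3280 to 3668 FPKM for Control, 2921 to 3197 for Glu, 3024 to 3259 for DMSO+Glu and 2882 to 3053 for Nar+Glu. Of 10 body-wall muscle genes, 8 rose with glucose and 2 fell with naringin, with sums of 1020 to 1179, 1279 to 1407, 1212 to 1223 and 1046 to 1144 FPKM in that order of groups. Of 12 intestinal genes, 5 rose and 6 fell with glucose and 5 fell with naringin. Of 6 zygotic embryo genes tested, 1 fell with glucose and 0 were called with naringin. The part of these tissues in the values of the col genes was not tested.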

How the data were processed

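Poly(A) RNA of 12 libraries was made into stranded libraries and sequenced by the authors. The deposited FPKM per gene and per transcript were made by the authors with HISAT2 and StringTie (versions 2.1.0 and 1.3.3 in the submitters' processing notes) and Ballgown, on WBcel235. STAR 2.5.2b and edgeR are also listed in those notes, which give no role for them, and the circular RNA tables were not used. The FPKM show no common step from which whole reads could be recovered, so that depth is unknown and no counting interval is given. No gene row peaks below 0.535 FPKM, so that genes of lower level are not in these tables. Matrices of the whole series hold the same values as the files of the single libraries and were not used.

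Groups came from the labels. The 12151 of 15365 genes that averaged more than 1 FPKM across the 12 libraries were fitted as log2(FPKM + 1) on the 4 groups in limma 3.58.1 (R 4.3.3) with a mean-variance trend, all 12 libraries sharing 1 estimate of the spread. P-values were adjusted by Benjamini-Hochberg over all genes tested, and a gene was called at an adjusted p below 0.05. Differences are first group minus second. Sums were compared by a two-sided exact permutation test over 20 labellings. The scripts were tested on simulated data.

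The members and gene lists were chosen with earlier results of these data known. Genes named were, for Glu against Control and Nar+Glu against DMSO+Glu, the 10 largest called rises and 10 largest called falls with a mean of at least 5 FPKM, then up to 6 called in DMSO+Glu against Glu, the 8 highest means, textbook genes and near-identical pairs, and up to 3 genes per other list and comparison. Similarity of sequence was not computed, and col-12 with col-13 is a pair from general knowledge. Named outside the rule, after their values were seen, were col-3, col-117, col-92, col-94, col-115, col-88, col-126, col-127, col-160 and col-167. The single results of these genes were not followed through the alternatives. Gene positions and overlaps are those of the Ensembl annotation of WBcel235.

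The alternatives were a pseudocount of 0.1, no filter or a mean above 5 FPKM, median-ratio and quantile scaling, only the libraries compared, no trend, the replicate block, an unmoderated fit with a library covariate, modelled on Ballgown, the thresholds of the study, transcript rows summed per gene, and leaving out each library. The share of all summed FPKM was added after seeing the data.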

Additional observations from a re-analysis of the deposited data

How the results depend on the processing

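The counts of col genes called in Glu against Control, Nar+Glu against DMSO+Glu and Nar+Glu against Control stayed within 1.5 times of those reported under every alternative run except the unmoderated fit with a library covariate, which takes 6 libraries. That fit called 0 members in each: 0 in place of 46 higher and 4 lower, 0 in place of 7 lower in DMSO+Glu against Glu, 0 in place of 6 higher and 48 lower, and 0 in place of 32 higher and 42 lower. It differs from the main fit in the covariate, in taking 6 libraries and in the lack of a shared estimate of the spread. All 89 calls among the 36 genes named were lost there. With the 6 libraries alone and moderation kept, 49 members were higher and 4 lower in Glu against Control, and 0 and 9 in DMSO+Glu against Glu. The same setting gave 4 and 44 in Nar+Glu against DMSO+Glu, and 33 and 38 in Nar+Glu against Control. Of all genes, it called 23.2%, 1.14%, 8.01% and 50.7% in that order of comparisons. Which difference accounts for the loss was not tested. In DMSO+Glu against Glu, the 0 members called higher became 6, and the 7 called lower became 22, under the thresholds of the study. Those thresholds called 9.23% of all genes there, against 1.25% in the main fit. Leaving out 1 library at a time gave 34 to 55 higher and 4 to 5 lower in Glu against Control, 0 to 1 higher (1 without DMSO+Glu replicate 2) and 6 to 7 lower in DMSO+Glu against Glu, 4 to 7 higher and 35 to 55 lower in Nar+Glu against DMSO+Glu, and 25 to 35 higher and 33 to 49 lower in Nar+Glu against Control. The ratio of the summed col signal was 1.08 to 1.15 for Glu to Control and 0.691 to 0.778 for Nar+Glu to DMSO+Glu when 1 library was left out.

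Replicate numbers did not pair the libraries: residuals of libraries with the same number correlated at -0.100 to 0.128 over 18 pairs. With the replicate number as a block, 44 members were higher and 5 lower in Glu against Control, 2 higher and 7 lower in DMSO+Glu against Glu, 6 higher and 51 lower in Nar+Glu against DMSO+Glu, and 32 higher and 42 lower in Nar+Glu against Control. The block called 31.4%, 1.07%, 9.20% and 55.0% of all genes in that order.

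Median-ratio scaling gave 53 higher and 4 lower in Glu against Control, and over all genes 1948 higher and 1673 lower in place of 1532 and 2276, moving the median of all genes from -0.06 to -0.01. Signs turned mostly where nothing was called. In Glu against Control, median-ratio and quantile scaling gave 0.033 and 0.090 for col-93, 0.052 and 0.093 for col-140, 0.048 and 0.11 for col-106, and 0.024 and 0.052 for col-178, the library covariate gave 0.049 for col-140, and summed transcripts gave -0.43 for col-99. Leaving out 1 library gave -0.078 to 0.032 for col-93, -0.055 to 0.048 for col-140, -0.099 to 0.063 for col-106 and -0.088 to 0.030 for col-178, and in Nar+Glu against DMSO+Glu -0.18 to 0.039 for col-39 and -0.11 to 0.093 for col-147. In Nar+Glu against DMSO+Glu the library covariate gave -0.067 for col-147 and -0.061 for col-10. The 1 called result that turned was col-99 in Nar+Glu against Control, at -0.061 with summed transcripts. Besides the library covariate, 13 of the 89 calls were lost under at least 1 alternative, and those are given with their genes. Leaving out 1 library brought 6 uncalled results past the threshold: col-121 (without Control replicate 2, adjusted p = 0.0112) and col-120 (without Control replicate 2, 0.0461) in Glu against Control, and, in Nar+Glu against DMSO+Glu, col-101 and col-12 (without Nar+Glu replicate 1, 0.0322 and 0.0327) and col-107 and col-99 (without Nar+Glu replicate 2, 0.0437 and 0.0468). The depth of the libraries is unknown, and 3 libraries a group limit every comparison. The causes were not tested.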
